A study of Mus musculus with 6 samples.

Results

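Most fibroblast growth factors (FGFs) are secreted proteins, and in the ear region they pass signals between the otic epithelium, the hindbrain and the surrounding mesenchyme. The ligands described here are Fgf3, Fgf8, Fgf9, Fgf10, Fgf15, Fgf16 and Fgf20, measured in the otic vesicle, from whose epithelium the inner ear develops. They were read by every probe set, a group of short array probes for a transcript, that the platform annotation assigns to one of these 7 genes and to no other gene. The 7 ligands are among 18193 genes named from the table, and they had 10 such probe sets among the 45037 that are not controls. Fgf3 had 3, Fgf9 had 2, and the other ligands had 1 each.

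RNA came from otic vesicles that were microdissected at embryonic day 11.5 in the mouse. Mest-KO embryos had lost Tbx1, a T-box transcription factor gene, through conditional deletion with T-Cre, a recombinase whose expression follows the early mesoderm gene T (Brachyury), so the deletion was aimed at mesoderm and not at the vesicle epithelium. The controls also carried T-Cre and were conditional Tbx1 heterozygotes, so the comparison is between loss of both copies and of a single copy. There were 3 arrays per group, and every array carried a pool of both ears from 3 embryos that shared a genotype. Before RNA isolation, dispase was used to remove the tissue around the vesicle. The design asks how the vesicle differs when Tbx1 is lost from its surrounding mesoderm.

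Most FGF ligands bind FGF receptors together with heparan sulphate. The bound receptors switch on the Ras and MAP kinase cascade. Its targets include the transcription factor genes Etv4 and Etv5 and the feedback inhibitor genes of the Spry and Spred families. Fgf3 and Fgf10 belong to the subfamily that signals to epithelium through the IIIb splice form of Fgfr2, and together they are needed for induction and shaping of the inner ear. Fgf9, Fgf16 and Fgf20 form another subfamily. Fgf8 acts in otic induction and later in the organ of Corti, and Fgf15 is the mouse counterpart of human FGF19.

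Intensities are the deposited values on a linear scale, and each array had a trimmed mean of 500. Mest-KO 3 stood apart from the rest. The median on it was 91.0, with 62.1 to 71.0 elsewhere, and its first principal component was 64.6, against -20.0 to -6.65. The Mest-KO 1 pool had nearly no Xist signal (16.1, against 2331 to 5034 on the other arrays), and the control 2 pool nearly no signal of the Y-linked Eif2s3y (12.1, against 1373 to 2663). Tbx1 itself had intensities of 910, 704 and 713 in Mest-KO and 898, 690 and 766 in control, which does not check the labels since the deletion was aimed at mesoderm. Markers of the labelled tissue were present: 10 of 10 matched genes of the otic epithelium list lay above the brightness filter, with Oc90, an otolith matrix protein gene, at 11000 to 12449. The summed signal of that list, taken here and for later lists from quantile-normalized values put back on the linear scale, ran from 33430 to 37004 in Mest-KO and from 34305 to 36711 in control. Of 7 matched hindbrain genes, 3 lay above the filter, with Egr2 at 22.9 to 119, Pax3 at 16.1 to 96.0 and Lmx1b at 6.8 to 64.6. The other 4 lay below it, among them Atoh1 at 7.3 to 38.0 and Ptf1a at 3.2 to 21.8. Markers of other cell types were also present. The globin genes Hbb-y and Hba-x lay at 12520.7 to 15049.7 and 5933.5 to 7564.1. All 7 genes of the periotic mesenchyme list lay above the filter, with Prrx1 at 170.5 to 986.3 and Twist1 at 149.6 to 720.3.

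Changes are log2 differences of quantile-normalized values, Mest-KO minus control, each with its standard error (SE) from limma. A filter on brightness kept probe sets with a mean over the 40th percentile, which corresponds to an intensity of 34.4, and 9 of the 10 ligand probe sets passed. Fgf8 did not. Of those 9, limma called 0 at a Benjamini-Hochberg adjusted p under 0.05, and the share called over all 27022 probe sets tested was 0%. At an unadjusted p under 0.05 there were 2 of 9, both of Fgf3, against 3.98% of all probe sets. The values of 1 of the 9 did not overlap between the groups, against 9.37% of all probe sets. By sign, Mest-KO was above control for 6 of the 9 and below it for 3, and 48.3% of all probe sets were higher. The median change of the 9 was 0.17, against -0.01 over all probe sets, and it was 0.01 without Mest-KO 3. With median centring it was 0.05 (5 higher and 4 lower), where the median of all genes moved to -0.14. Fgf3 and Fgf9 hold 5 of the 6 higher probe sets. Counted by gene, with the brightest probe set for each, 3 of the 6 ligands above the filter were higher and 3 lower, with a median of 0.05. It was -0.06 with median centring, against -0.14 over all genes, and between -0.04 and 0.14 with single arrays left out. In pooled tissue, fewer cells of a type and less RNA per cell cannot be told apart. Brightness is not compared between probe sets, because it depends on the probes as well as on the transcript.

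**Figure D1:**
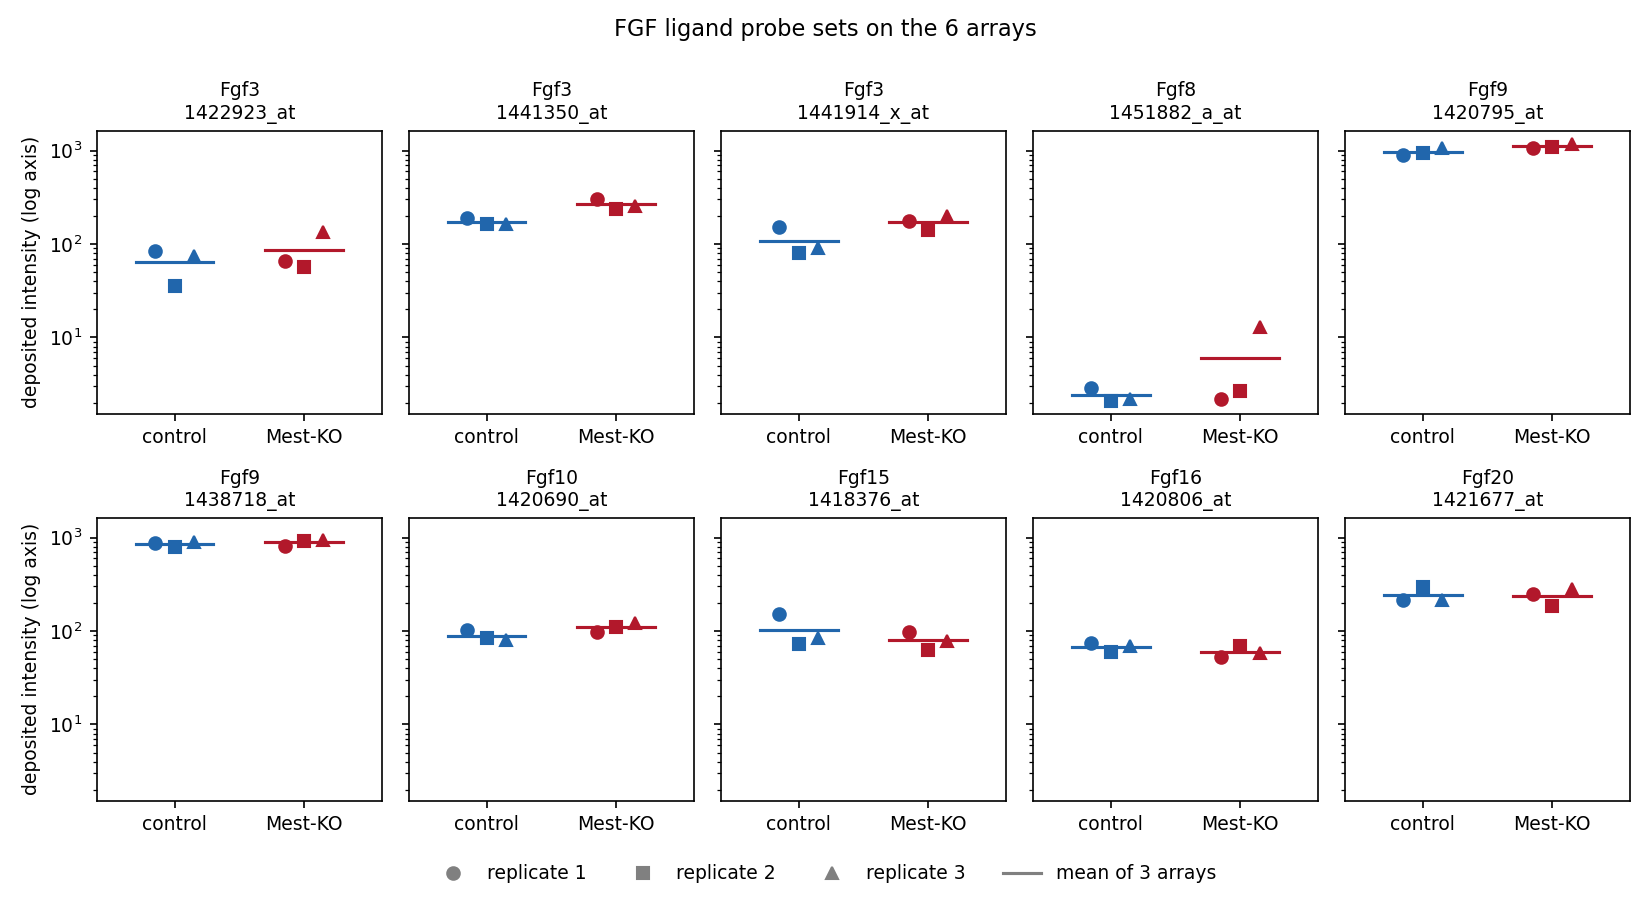
Deposited intensity (log axis) of each of the 10 FGF ligand probe sets in control (blue) and Mest-KO (red), with 1 point per array and the mean of 3 arrays as a line. For Fgf3 at 1441350_at the Mest-KO points, 240 to 302, all lie above the control points, 162 to 192, while Fgf8 lies at 2.1 to 2.9 on all arrays but Mest-KO 3 (13.1).

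Fgf3, a ligand made by hindbrain and otic epithelium that is needed for the endolymphatic duct, had the smallest p among the ligands. At probe set 1441350_at its intensities were 302, 240 and 254 in Mest-KO and 192, 162 and 162 in control. The means were 265 ± 32.8 (SD, n = 3) and 172 ± 16.9 (SD, n = 3), and every Mest-KO array lay above every control array. The log2 difference was 0.56 (SE 0.129, 95% confidence interval 0.244 to 0.875), a 1.47-fold difference, and it missed the threshold after adjustment over all probe sets (limma adjusted p = 0.969). The share of all probe sets whose Mest-KO values all lay above the controls was 4.17%. The exact two-sided permutation p was 0.1, the smallest that 3 against 3 arrays allow.

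The other Fgf3 probe sets were less regular. At 1441914_x_at, whose suffix marks probes that can also match other transcripts, the intensities were 178, 143 and 199 in Mest-KO and 152, 80.3 and 91.8 in control. Here control 1 lay above Mest-KO 2, so the groups overlapped, and the log2 difference was 0.63 (SE 0.230, limma adjusted p = 0.969). At 1422923_at the intensities were 65.1, 57.2 and 134 in Mest-KO and 83.8, 35.3 and 75.4 in control. Mest-KO 3 was the highest and control 2 the lowest, and the groups were otherwise intermixed, with a log2 difference of 0.29 (SE 0.361). That difference was 0.01 without Mest-KO 3 and -0.03 without control 2.

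Among the 3 Fgf3 probe sets the largest gap in change was -0.34, between 1422923_at and 1441914_x_at. The SD of that gap between arrays was 0.371 in Mest-KO and 0.446 in control. Over the 6 arrays, 1422923_at followed 1441350_at only weakly (Pearson r = 0.26) and 1441914_x_at more closely (0.63). The correlation between 1441350_at and 1441914_x_at was 0.85, so the 2 with an unadjusted p under 0.05 are not independent readings. Averaged on the log2 scale, the 3 gave 7.28, 6.98 and 7.43 in Mest-KO and 7.06, 6.44 and 6.70 in control, where Mest-KO 2 lay below control 1. With the mean of all probe sets as the value of the gene, the log2 difference was 0.49 (SE 0.196, limma adjusted p = 0.984). Without the 2 pools of a single sex, the differences at 1441350_at, 1441914_x_at and 1422923_at were 0.44, 0.45 and 0.05.

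Markers of other cell types are given beside Fgf3. The prosensory and neurogenic list holds 6 genes (Sox2, Jag1, Lfng, Neurog1, Neurod1 and Isl1), all above the filter. Its summed signal was 14757 to 15466 in Mest-KO and 13776 to 14047 in control, without overlap. This was not particular to that list. The sums of the ear ligands (1757 to 1910 against 1613 to 1699) and of the feedback inhibitors described below (13399 to 16656 against 12385 to 13162) did not overlap either. Nor did those of the upstream genes (8360 to 9168 against 9432 to 10585). A sum is also weighted towards the brightest probe sets. Limma called 0 of the 6 prosensory and neurogenic genes. By sign 5 were higher, against 49.1% of all genes, and 3 were higher with median centring or with probe sets averaged. Median centring put the median of all genes at -0.14. At an unadjusted p under 0.05 there was 1 gene, Neurod1, a neuroblast transcription factor gene chosen after its values were seen. At the brighter of its 2 probe sets, the only one read by itself here, it had 1945, 1379 and 1490 in Mest-KO and 994, 1122 and 1096 in control (limma adjusted p = 0.777). The mesenchyme list (7 of 7 genes above the filter) ran from 777 to 2469 in Mest-KO and from 656 to 1579 in control, and the hindbrain list (3 of 7 matched genes) from 54 to 186 and from 128 to 207. The part of these cell types in the Fgf3 result was not tested.

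The sequence ahead of a gene's start is shown for Fgf3, Fgf10 and Fgf9, the only ligands for which it was available. RefSeq entries on build GRCm38.p6 matched these 3 of the 7 ligands. Each run holds the 250 bases before the start, 5′ to 3′ on the plus strand, and capitals mark a match to a motif searched. They lie at chr7:144838362-144838611, chr13:118714449-118714698 and chr14:58072436-58072685.
Fgf3: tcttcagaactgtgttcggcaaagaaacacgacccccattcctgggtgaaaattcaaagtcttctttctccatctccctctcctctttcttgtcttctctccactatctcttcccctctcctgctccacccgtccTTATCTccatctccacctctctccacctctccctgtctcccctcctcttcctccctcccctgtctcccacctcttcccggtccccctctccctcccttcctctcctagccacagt
Fgf10: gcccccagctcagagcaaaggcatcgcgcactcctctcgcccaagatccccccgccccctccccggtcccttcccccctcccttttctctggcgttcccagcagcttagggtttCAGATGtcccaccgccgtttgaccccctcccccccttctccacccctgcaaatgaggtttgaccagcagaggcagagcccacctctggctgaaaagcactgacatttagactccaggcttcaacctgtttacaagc
Fgf9: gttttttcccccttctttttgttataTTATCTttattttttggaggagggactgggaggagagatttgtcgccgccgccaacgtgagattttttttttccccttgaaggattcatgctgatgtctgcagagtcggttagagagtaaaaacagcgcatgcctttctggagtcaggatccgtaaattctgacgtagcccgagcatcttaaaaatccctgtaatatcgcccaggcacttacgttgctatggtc

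Both strands were searched for a GATA factor core (AGATAA), a T-box motif (AGGTGTGA), a Gli core (GGGTGGTC) and an E-box of neurogenic factors (CAGATG). No matches overlapped in these runs. Fgf3 and Fgf9 each held the GATA core on the minus strand, read as TTATCT, beginning 115 and 224 bases before the start. Among 32851 promoter windows of this length, 9.99% held it. Fgf10 held the E-box, beginning 136 bases before the start, which 14.4% of windows held. Neither the T-box motif nor the Gli core was found in these 3 windows, and they occurred in 1.12% and 0.703% of all. A match is a description of the letters and says nothing of binding. The Fgf3 window was rich in C and T on the printed strand, at 79.2% of bases, against a median of 50% over all windows, and 99.9% of windows had a lower share. The shares in the Fgf10 and Fgf9 windows were 63.2% and 54.8%.

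Fgf10, which acts with Fgf3 on the otic epithelium, had intensities of 96.5, 110 and 121 in Mest-KO and 102, 84.5 and 79.8 in control. Control 1 lay above Mest-KO 1, and the other Mest-KO arrays lay above all controls. The log2 difference was 0.17 (SE 0.124, 95% confidence interval -0.127 to 0.476, limma adjusted p = 0.969). It was 0.30 with the deposited scaling alone and 0.07 without control 3, so the size of this difference depended on the scaling and on 1 array.

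Fgf9, which signals from the otic epithelium to the mesenchyme of the future otic capsule, had intensities at 1420795_at of 1074, 1082 and 1181 in Mest-KO and 899, 936 and 1072 in control. On the deposited scale the Mest-KO arrays lay just above the controls. After quantile normalization the groups overlapped. The log2 difference was 0.20 (SE 0.118, 95% confidence interval -0.0845 to 0.491, limma adjusted p = 0.969). It was 0.05 with median centring, where the median of all genes was -0.14. At the second Fgf9 probe set, 1438718_at, the values were 819, 922 and 950 in Mest-KO and 874, 791 and 898 in control, and the groups were intermixed. Its log2 difference was 0.06 (SE 0.112). The changes at the 2 probe sets differed by 0.15, and the SD of that gap between arrays was 0.0777 in Mest-KO and 0.118 in control. Fgf9 had the narrowest spread of the ligands, with the highest array 1.31 times the lowest at 1420795_at and 1.20 times at 1438718_at.

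Fgf20, a ligand of the same subfamily that is needed for sensory cells of the cochlea, had intensities of 252, 185 and 280 in Mest-KO and 216, 294 and 214 in control. The highest array was control 2 and the lowest Mest-KO 2. The means were 239 ± 48.5 (SD, n = 3) and 241 ± 45.4 (SD, n = 3). The log2 difference was -0.07 (SE 0.209), and its 95% confidence interval, from -0.578 to 0.441, does not show that the levels were alike. Its sign turned without Mest-KO 2 (0.09) and without control 2 (0.10).

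Fgf16, a ligand gene on the X chromosome that is expressed in the sensory cristae of the inner ear, had intensities of 52.8, 68.8 and 58.1 in Mest-KO and 73.8, 59.4 and 69.2 in control. On this scale the groups overlapped, with Mest-KO 2 between the lowest and the highest control. The log2 difference was -0.38 (SE 0.213, 95% confidence interval -0.900 to 0.138, limma adjusted p = 0.969). Quantile normalization placed Mest-KO 3 at 5.31 on the log2 scale, against 5.85 and 6.13 on the other Mest-KO arrays and 6.10 to 6.21 in control. The difference was -0.16 without Mest-KO 3, and -0.18 with the deposited scaling alone. The pools also differed in sex for this X-linked gene, and without the 2 pools of a single sex the difference was -0.43.

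Fgf8 lay below the filter. Its intensities were 2.2, 2.7 and 13.1 in Mest-KO and 2.9, 2.1 and 2.2 in control, so on the deposited scale Mest-KO 3 alone was raised. After quantile normalization the log2 values were 1.51, 1.79 and 3.11 in Mest-KO and 1.13, 1.39 and 1.46 in control. On that scale the groups did not overlap, so the 2 scales differ at this low signal. The 27 probe sets for Bacillus transcripts, which mouse RNA does not contain, had a median of 14.4 on Mest-KO 3 and of 1.85 to 5.62 on the other arrays. The Fgf8 signal lay below that median on 5 of the 6 arrays, Mest-KO 3 included, and above it on Mest-KO 2 (2.7 against 1.85). Fitted without the filter, the log2 difference was 0.81 (SE 0.451), and without Mest-KO 3 it was 0.35. No difference in Fgf8 could be read at this signal, and the probe set does not show whether the transcript was absent.

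Fgf15 had intensities of 96.9, 62.9 and 78.5 in Mest-KO and 153, 72.6 and 83.6 in control. Control 1 was the highest of all arrays, and the others were intermixed. The log2 difference was -0.49 (SE 0.311, 95% confidence interval -1.25 to 0.268, limma adjusted p = 0.969), and it was -0.20 without control 1 and -0.84 without the 2 pools of a single sex. The hindbrain list given above, whose tissue also expresses Fgf15, had summed signals that overlapped between the groups (54 to 186 in Mest-KO and 128 to 207 in control). Only 3 of its 7 matched genes lay above the filter. Each of these was under an intensity of 34.4 on some arrays. Its part in the Fgf15 values was not tested.

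**Figure D2:**
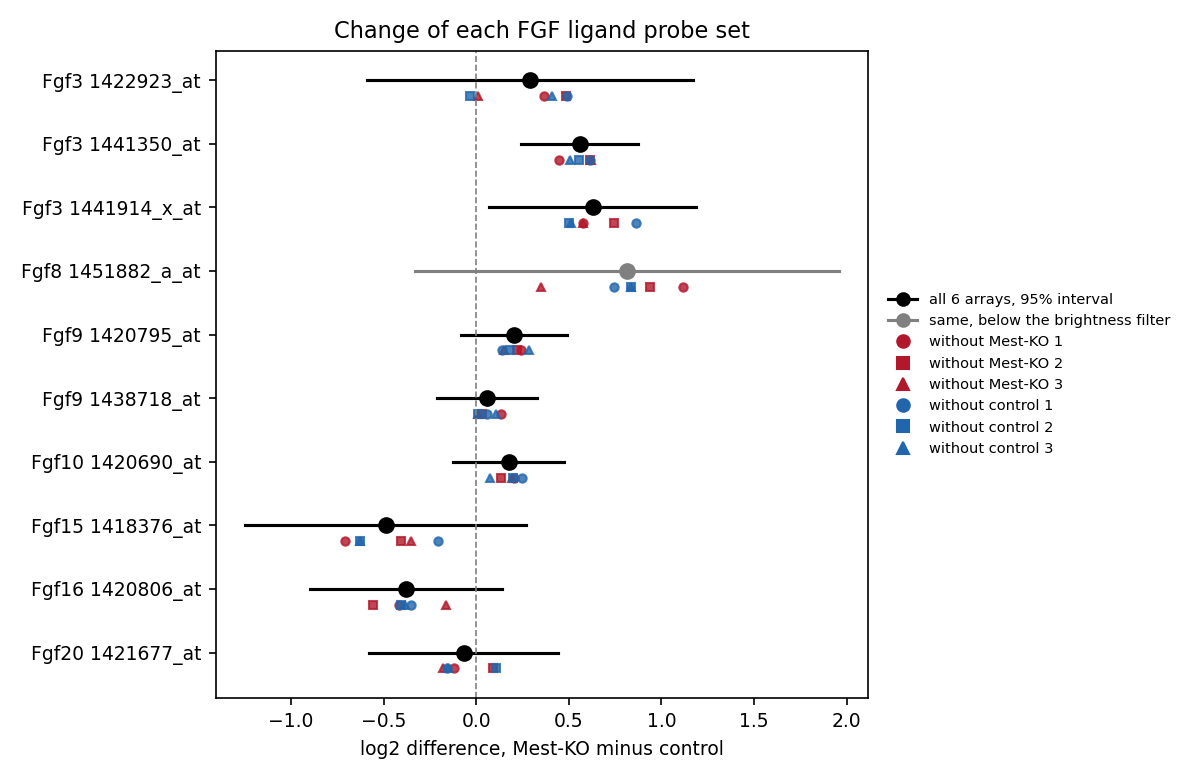
Log2 difference, Mest-KO minus control, of each FGF ligand probe set with its 95% confidence interval from limma (black, or grey for Fgf8 below the filter), and below it the value with each array left out in turn. The interval lies above 0 for Fgf3 at 1441350_at (0.244 to 0.875) and at 1441914_x_at (0.0676 to 1.19), without adjustment over all probe sets, and crosses 0 for the others.

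Fgf3, Fgf4 and Fgf15 lie next to each other on the chromosome, with Ano1 and Fadd on one side and Lto1 and Ccnd1 on the other. In the gene-level fit, in which the brightest probe set stands for a gene, the log2 differences were -0.01 (SE 0.118) for Ano1, a chloride channel gene, and -0.03 (SE 0.336) for Fadd. Fgf4, between Fgf3 and Fgf15, differed by 0.12 (SE 0.358), with Mest-KO 3 at 93.0 and the other arrays at 24.2 to 37.6. Lto1 differed by -0.07 (SE 0.127) and Ccnd1, the cyclin D1 gene, by -0.06 (SE 0.0739). The estimates for these 4 genes beside the cluster were at most 0.07 in size, and none of the 7 genes was called. With an SE of 0.336, the Fadd estimate does not show that its levels were alike. The difference in change between Fgf3 and Fgf15 was not tested.

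**Figure D3:**
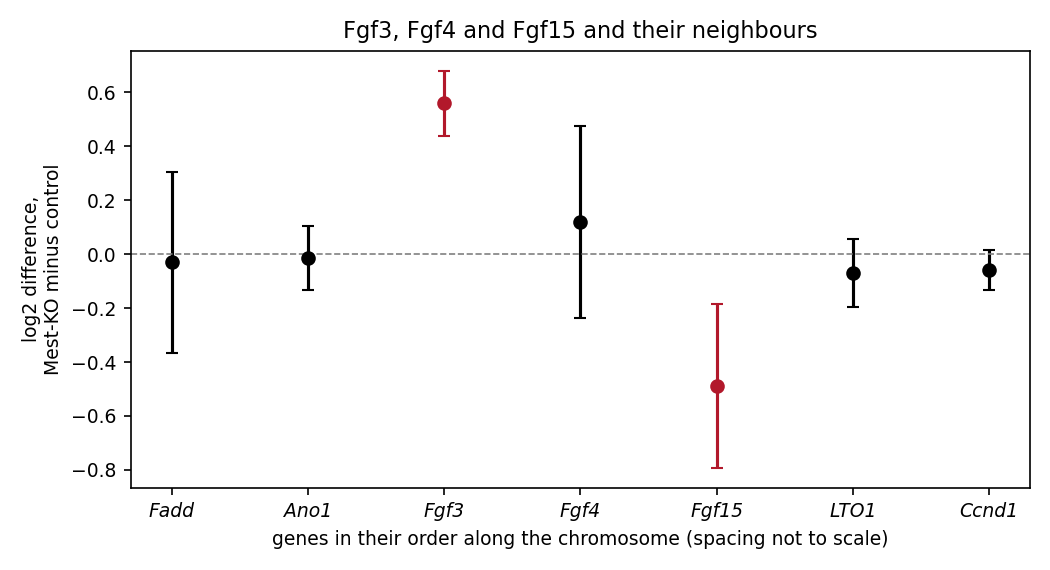
Log2 difference (point) and standard error (bar) of Fgf3, Fgf4, Fgf15 and the 2 nearest named protein coding genes on each side, in their order along the chromosome. Fgf3 lies at 0.56 and Fgf15 at -0.49, while the 4 flanking genes lie between -0.07 and -0.01.

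The other genes of the pathway were read at gene level, where limma called 0 of 12462 genes and 5.14% had an unadjusted p under 0.05. By sign 49.1% of all genes were higher in Mest-KO, with a median change of 0.00. With median centring the median of all genes was -0.14, and list values under that scaling stand against it. Genes named from the lists, other than Fgfr2 and Dusp6, were picked for an unadjusted p under 0.05 or the smallest p of their list. Such a choice favours groups that do not overlap, so a lack of overlap in them adds no support. Among all probe sets tested, 9.37% had groups without overlap. Among the 5 receptors, all above the filter, 3 were higher and 2 lower with a median of 0.09 (1 higher and 4 lower with median centring, 5 higher without control 1, and a median of -0.07 with probe sets averaged), and none had an unadjusted p under 0.05. Fgfr2, the receptor of Fgf3 and Fgf10, had intensities of 4875, 5072 and 3994 in Mest-KO and 3932, 4594 and 4884 in control. Its groups were intermixed, with a log2 difference of 0.09 (SE 0.121). Fgfr3 had the smallest p of the receptors, with a log2 difference of 0.15 (SE 0.121), while its second probe set, 1425796_a_at, gave -0.12.

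Of the 9 feedback inhibitors, all above the filter, 9 were higher by sign in Mest-KO with a median of 0.24, 2 had an unadjusted p under 0.05, and none passed the adjusted threshold. With median centring, which put the median of all genes at -0.14, the count by sign was 7 of 9 with a median of 0.08. Without Mest-KO 2 it was 7 of 9 with a median of 0.11, and when probe sets of a gene were averaged it was 7 of the 8 above the filter with a median of 0.08. Spry4, an inhibitor of receptor tyrosine kinase signalling, had intensities of 137, 216 and 132 in Mest-KO and 77.3, 103 and 80.4 in control at its brightest probe set, without overlap (log2 difference 0.75, SE 0.269). At its other probe set above the filter, 1440867_at, the groups overlapped and the difference was 0.17. Il17rd, an FGF receptor antagonist, had 1710, 1531 and 1691 against 1280, 1404 and 1374, also without overlap (0.29, SE 0.0913), while its second probe set gave -0.26. Dusp6, a phosphatase gene induced by FGF signals, differed by 0.16 (SE 0.125).

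Among 6 transcription factors and targets above the filter, of 7 matched, 4 were higher and 2 lower with a median of 0.09. With median centring the split was 2 higher and 4 lower (median -0.08, against -0.14 over all genes). It was 3 and 3 with probe sets averaged (-0.04) and without Mest-KO 2 (0.00). Etv4 had intensities of 370, 418 and 351 in Mest-KO and 329, 303 and 306 in control, which did not overlap (log2 difference 0.24, SE 0.0992). The other Etv4 probe set gave -0.54. Of 8 co-receptors and heparan sulphate carriers, 6 lay above the filter, 2 of them higher and 4 lower (1 and 5 with median centring, 3 and 3 without Mest-KO 2). The heparan sulphate proteoglycan gene Sdc4 had 2537, 2494 and 2134 against 2872, 3027 and 2721, lower on every Mest-KO array (-0.26, SE 0.0954). Of the 6 intracellular adaptors above the filter, 3 were higher and 3 lower with a median of -0.02. With median centring 0 were higher (median -0.19, against -0.14 over all genes), and with probe sets averaged 1 was higher (-0.12). Shc1 had the smallest p of them (-0.13, SE 0.122), and its second probe set gave 0.00. Limma called none of these genes. Etv4 and Sdc4 were picked for an unadjusted p under 0.05, which favours groups without overlap. In the limma fit of all probe sets, the same Etv4 probe set had an unadjusted p of 0.0665.

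Of 15 other FGF ligands, 7 lay above the filter, 2 higher and 5 lower in Mest-KO with a median of -0.31, and none was called. That median was -0.12 with the deposited scaling alone (3 higher and 4 lower), -0.12 without control 2, -0.20 without Mest-KO 3 and -0.14 with probe sets averaged. Fgf18, a ligand with roles in cartilage and bone, had 96.6, 104 and 91.5 in Mest-KO and 116, 156 and 129 in control, without overlap (log2 difference -0.58, SE 0.199). Of 13 genes known to act upstream of FGF ligands in and around the ear, 9 matched and 7 lay above the filter, 2 higher and 5 lower with a median of -0.08. Without Mest-KO 3 and without control 1 the balance turned to 4 higher and 3 lower, with medians of 0.02 and 0.06. Gata3, a transcription factor gene needed for ear morphogenesis, had 1123, 915 and 1123 in Mest-KO and 2171, 2074 and 2146 in control (-1.02, SE 0.107, limma adjusted p = 0.0969). Gli1, a target of hedgehog signalling, had 81.7, 119 and 80.3 against 169, 139 and 183 (-0.97, SE 0.243). Both lay lower on every Mest-KO array, and neither passed the adjusted threshold. Fgf18, Gata3 and Gli1 were picked for an unadjusted p under 0.05, which favours groups without overlap.

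**Figure D4:**
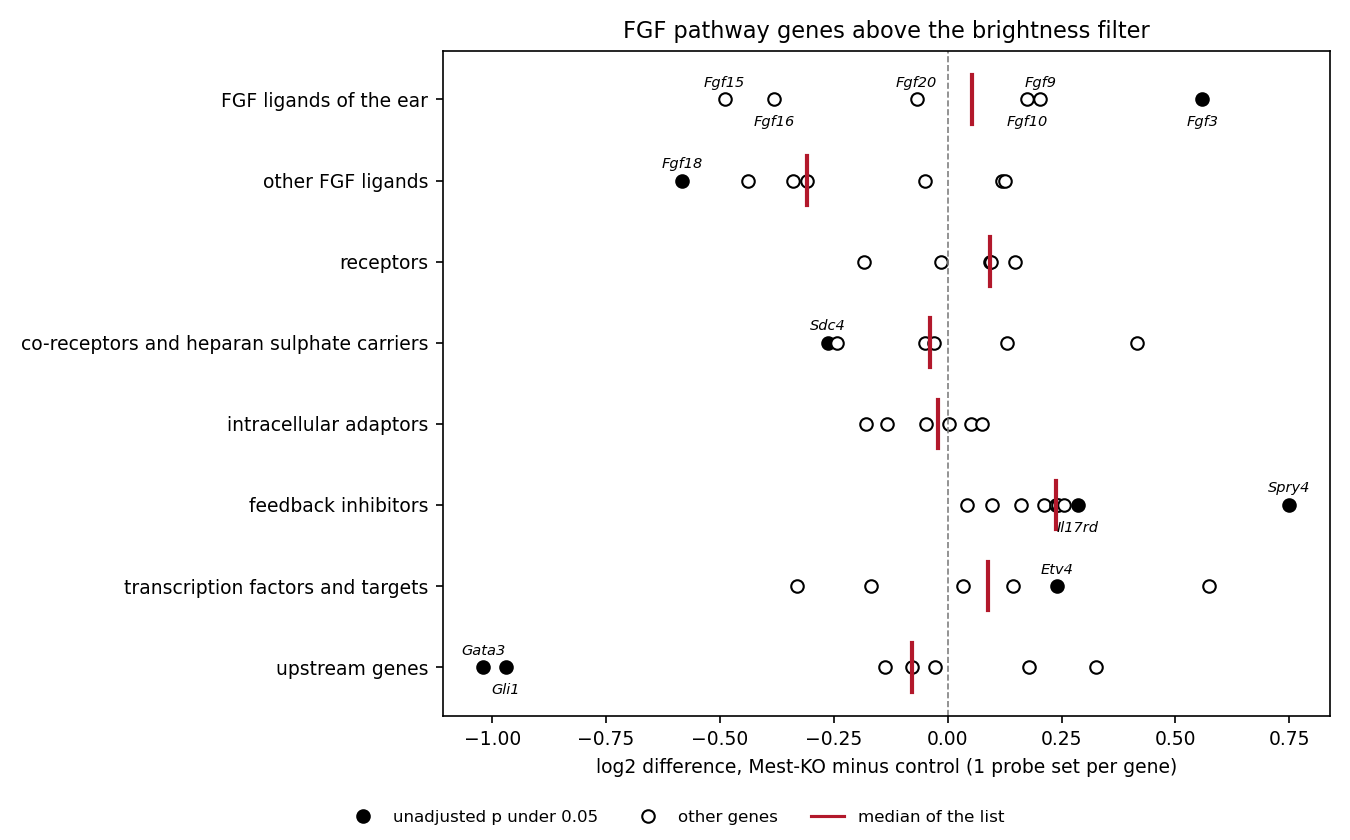
Log2 difference, Mest-KO minus control, of each gene above the brightness filter in 8 lists, with genes of unadjusted p under 0.05 filled and the median of each list as a red line. The feedback inhibitors lie between 0.04 and 0.75, the FGF ligands of the ear between -0.49 and 0.56, and limma called none of them over all genes.

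Genes whose values ran most like each ligand over the 6 arrays were taken from probe sets with a single symbol, above the filter, and with an SD of at least 0.3 on the log2 scale. With 6034 or more candidates per ligand, a high correlation arises readily over 6 arrays, and the values are a description. Fgf3 at 1441350_at ran closest to Nod1 (Pearson r = 0.979) and Rnf122 (0.973), and 19 candidates had r over 0.9. Fgf9 ran closest to 1700023F02Rik (0.979) and Kcnq5 (0.978), and Fgf10 to Slu7 (0.991) and Mxd3 (0.983). Fgf15 ran closest to Cdkn1a (0.983) and Socs2 (0.982), and Fgf20 to Lrmda (0.998) and Elk4 (0.989). Fgf16 ran closest to Vgll3 (0.998) and Slc9a3r2 (0.992), with 254 candidates over 0.9. The normalized value of Fgf16 was lowest on Mest-KO 3, the array that stood apart.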

How the data were processed

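The deposited table holds probe set intensities on a linear scale, made by the authors with Affymetrix Expression Console 1.1, per the submitters' processing notes. All arrays share a trimmed mean of 500 (2% off either end), as computed from the values. The sources used here do not name the method of probe summarisation or background correction. Of 45101 probe sets, 64 controls were left out, and 34945 had 1 gene symbol in the platform annotation. Intensities were floored at 1, put on the log2 scale and quantile normalized between arrays. Each probe set above the 40th percentile of mean level was fitted by lmFit and eBayes of limma 3.58.1 (R 4.3.3) with no covariate, two-sided, with Benjamini-Hochberg adjustment over 27022 probe sets at 0.05. Fgf8, below the filter, was fitted with all probe sets. Pathway genes were read from their probe set with the highest mean (12462 genes). Named pathway genes have an unadjusted p under 0.05 or the smallest p of their list, and Fgfr2, Dusp6 and Neurod1 were chosen after their values were seen. Arrays within a group are biological replicates, per the labels. The number of arrays limits the precision. The steps were tested on simulated data, and matplotlib 3.10.9 (Python 3.11.15) drew the figures. The members and lists were chosen with earlier results of these data known. Alternatives covered the filter, scaling, floor, variance prior, array weights, replicate block, single arrays left out, the threshold and the rule for several probe sets.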

Additional observations from a re-analysis of the deposited data

How the results depend on the processing

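The ligand probe sets had 0 calls in limma under each alternative run. Over all probe sets the count, 0 with the settings used here, was 1 without a filter, 9 with the filter at the 60th percentile, 15 with median centring, 14 with limma's trend, 17 with the trend and robust fitting, and 1 at an adjusted p under 0.10. It was 0 with each array left out. Among FGF pathway genes the count was 0, or 1 (Gata3) with the 60th percentile, median centring, the trend, the trend and robust fitting, and the 0.10 threshold, and it was 0 with each array left out. The cause was not tested. No filter, the trend, the trend with robust fitting and the replicate block leave a fitted difference as it is by construction. The floor at 16 lay under all values of the 9 ligand probe sets above the filter, and it also left their differences as they were. With these 9 included, there were 109 values of single ligand probe sets outside the 4 settings named before, and 5 of them changed sign. These were Fgf9 at 1438718_at with median centring (-0.080, where the median of all genes moved to -0.14), Fgf20 without Mest-KO 2 (0.09), without control 2 (0.10) and without both pools of a single sex (0.052), an alternative chosen after seeing the data, and Fgf3 at 1422923_at without control 2 (-0.032). With single arrays left out, Fgf20 ran from -0.18 to 0.10 and Fgf3 at 1422923_at from -0.032 to 0.49. Fgf3 at 1441350_at stayed between 0.44 and 0.62. Deviations from the group means correlated at -0.04, -0.01 and 0.03 between arrays of the same replicate number. These values show no sign of pairing, and with 3 arrays per group they cannot exclude it. With the replicate block, Fgf3 at 1441350_at had a limma adjusted p of 0.954 and, by construction, the same difference (0.56). With a floor at 16, Fgf8 had no value because every array lay at the floor.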

Other observations

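Fgf5, another FGF ligand gene, was chosen after its values were seen. At 1438883_at, below the brightness filter, it had intensities of 21.2, 25.3 and 19.5 in Mest-KO and 52.5, 52.2 and 50.3 in control, with no overlap between the groups. In the gene-level fit without the filter the log2 difference was -1.40 (SE 0.332, limma adjusted p = 0.882), so it was not called. The second Fgf5 probe set, at 2.1 to 10.9 on all arrays, gave -0.21 (SE 0.947). The Bacillus control probe sets had medians of 1.85 to 14.4 on these arrays.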
